A study of Mus musculus with 8 samples.

Results

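The insulin and IGF signalling genes examined here were the ligands *Igf1* and *Igf2*, the receptors *Igf1r*, *Insr* and *Igf2r*, the docking proteins *Irs1* and *Irs2*, and the binding proteins *Igfbp3* and *Igfbp5*. Their regions were the H3K27Ac peaks whose centre lay nearest to a curated transcription start of a member on mm10. This rule took 62 of 45980 annotated peaks, and all 9 genes had at least 1 peak. The rule took peaks by position, while the 9 genes were picked with earlier results of these data known.

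H3K27Ac ChIP-Seq, which maps acetylation of lysine 27 of histone H3, a mark of active promoters and enhancers, was performed on ventricles of mice at postnatal day 7. The Control group was *Arid1a* f/f without Cre, and the *Arid1a* cKO group was aMHC-Cre;*Arid1a* f/f, with 2 H3K27Ac samples in each. The floxed alleles were thus shared by both groups, and the Cre transgene is active in cardiomyocytes, whereas the chromatin came from whole ventricles with all their cell types. Each heart also gave an input library, for 8 libraries in all. *Arid1a* encodes a DNA-binding subunit of the SWI/SNF chromatin remodelling complex. The deposited values are the authors' means of normalized reads per peak for each group, with 0 columns of single samples. Depth per sample is therefore unknown, and no difference below has an error or a replicate check. Group means alone allow no new test, and the authors' own p-values per peak were not used here. Differences are given as cKO minus Control on the log2 scale, and a peak is called lower or higher where the group means differ at least 2-fold.

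Insulin and the insulin-like growth factors act through related receptor tyrosine kinases. Active receptors phosphorylate docking proteins of the IRS family, which recruit PI3-kinase and lead to AKT and mTOR activity, glucose uptake and growth. IGF-binding proteins hold the ligands outside the cell and set how much of them reaches the receptors. In the heart this pathway is known for its part in cardiomyocyte growth before and after birth.

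Among the 62 peaks, 4 (6.45%) were at least 2-fold lower and 2 (3.23%) at least 2-fold higher in *Arid1a* cKO ventricles. Over all annotated peaks the shares were 10.6% lower and 4.57% higher, both above those of the members under this assignment of peaks. The order depended on the assignment. With peaks inside a gene given to that gene, 6 of 70 member peaks (8.57%) were higher, and with starts of protein-coding transcripts alone, 12 of 86 (14.0%) were lower. The peaks that the latter added lay nearer to starts of noncoding transcripts, some of them far from the member. At a limit of 1.5-fold, 11 of the 62 (17.7%) were lower and 7 (11.3%) higher, against 17.3% and 12.0% of all peaks. The median difference was -0.015 over the members and 0.01 over all peaks, with 31 member peaks below 0, 30 above 0 and 1 at 0. The genes differed from one another within this balance. *Igf1r* had 14 of 19 peaks above 0, *Insr* had 10 of 13 below 0, and the lower peaks lay at *Irs1* (2), *Insr* (1) and *Igf2r* (1), while both higher peaks lay at *Igf1r*.

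The sequences of the 4 peaks at least 2-fold lower are shown because they carry the largest downward differences of the members. Each is a stretch of 200 bases of the plus strand of GRCm38.p6 (mm10), chosen as the stretch of the peak with the most motif matches. Capitals mark matches, on either strand, to the TEAD core CATTCC, the MEF2 motif, the ESRR half-site AAGGTCA, the E-box CACGTG bound by the MYC family, the ZEB motif CACCTG, and the FOXO core GTAAACA. All but the FOXO core belong to factor families that the study named in its motif search. None of these motifs contains another.
Irs1 intron peak, chr1:82242575-82242774: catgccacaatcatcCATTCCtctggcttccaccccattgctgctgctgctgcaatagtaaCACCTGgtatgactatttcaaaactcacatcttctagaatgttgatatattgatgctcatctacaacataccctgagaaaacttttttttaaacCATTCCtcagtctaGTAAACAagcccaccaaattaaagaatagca
Irs1 second intron peak, chr1:82267613-82267812: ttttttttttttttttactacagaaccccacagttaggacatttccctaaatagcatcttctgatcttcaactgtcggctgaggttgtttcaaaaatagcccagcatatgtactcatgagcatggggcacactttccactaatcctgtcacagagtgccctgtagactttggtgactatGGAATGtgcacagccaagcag
Insr coding exon peak, chr8:3211714-3211913: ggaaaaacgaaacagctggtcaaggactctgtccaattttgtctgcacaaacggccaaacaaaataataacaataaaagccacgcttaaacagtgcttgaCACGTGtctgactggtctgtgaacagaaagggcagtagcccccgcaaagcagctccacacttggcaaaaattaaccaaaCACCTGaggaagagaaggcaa
Igf2r upstream peak, chr17:12787072-12787271: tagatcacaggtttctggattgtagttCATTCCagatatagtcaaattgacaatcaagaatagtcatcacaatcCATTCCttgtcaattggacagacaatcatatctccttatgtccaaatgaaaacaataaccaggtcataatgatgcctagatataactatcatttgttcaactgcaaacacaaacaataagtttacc

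The Irs1 stretch with the largest difference held 4 matches, to TEAD (2), ZEB (1) and FOXO (1). The *Insr* stretch held 1 E-box and 1 ZEB motif, and the *Igf2r* stretch held 2 TEAD cores. The second *Irs1* stretch held 1 match, to the TEAD core. None of the 4 held a MEF2 motif or an ESRR half-site within the letters shown. The repeat-masked share of these 4 peaks ranged from 13.5% at the second *Irs1* peak to 64.4% at the *Igf2r* peak, against a median of 14.2% over all peaks, and its part in the values was not tested.

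Over the whole length of the 62 member peaks, a TEAD core was found in 46 (74.2%), against 65.4% of all peaks. A ZEB motif was found in 44 (71.0%, against 69.3%), an ESRR half-site in 28 (45.2%, against 36.6%), a FOXO core in 25 (40.3%, against 25.9%) and an E-box in 21 (33.9%, against 28.9%). The MEF2 motif was found in 2 member peaks (3.23%, against 7.56%). Member peaks had a median width of 2024.5 bp, against 1781 bp over all peaks, and a longer peak has more room for a match. Per kb of peak, the TEAD core occurred 0.738 times in members and 0.612 times in all peaks, the ZEB motif 0.81 and 0.776 times, the FOXO core 0.192 and 0.143 times, and the E-box 0.187 and 0.167 times. The ESRR half-site occurred 0.225 and 0.23 times, so its larger share of member peaks was not seen per kb, and the MEF2 motif 0.00959 and 0.0334 times. Among 32817 RefSeq promoters of 300 bases, 14.7% held a TEAD core, 20.2% a ZEB motif, 4.72% an ESRR half-site, 3.65% a FOXO core, 7.15% an E-box and 0.558% a MEF2 motif. A match describes letters only and does not show that a factor was bound.

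*Igf1* encodes a growth factor made in liver and in many other tissues, and its gene spans chr10:87858265-87937047 on the plus strand. Of its 5 peaks, 4 were below 0 and none passed the 2-fold limit. The peak over its start had a group mean of 442.6 normalized reads in Control and 388.0 in cKO, a difference of -0.19. The largest difference was at an intron peak 11.3 kb downstream of the start (chr10:87871382-87873378), where the means were 77.17 and 46.53 reads (-0.73). A distal peak 95.8 kb upstream had 14.22 and 10.93 reads (-0.38), and an intron peak 32.3 kb downstream was the exception, with 9.254 and 12.82 reads (0.47). Summed over the 5 peaks, *Igf1* had 572.3 reads in Control and 486.7 in cKO, a ratio of 0.85. A further peak inside the gene (chr10:87926482-87927774) lay nearer to the start of the pseudogene *Tyms-ps* and had 43.41 and 18.51 reads (-1.23).

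*Igf2* encodes the fetal growth factor of the pair and is expressed from the paternal allele. Both of its peaks lay over its starts on chr7, and both groups had nearly the same values there. The larger peak (chr7:142656507-142661825), which also held the start of the antisense transcript *Igf2os*, had 242.2 and 237.2 reads (-0.03). The smaller (chr7:142663669-142668273) had 106.9 and 102.5 reads (-0.06). At the neighbouring *H19*, a noncoding RNA of the maternal allele, the start peak had 49.87 and 74.54 reads (0.58), and 2 upstream peaks differed by 0.34 and 0.63. The single peak nearest to *Ins2*, an insulin gene beside *Igf2*, had 13.74 and 25.11 reads (0.87). None of these neighbours passed the 2-fold limit.

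*Igf1r* encodes the receptor through which both IGFs signal, and it lies at chr7:67952257-68233667 on the plus strand. It had the most peaks of the members and the only higher ones. The start peak (chr7:67950228-67955782) had 572.1 reads in Control and 760.1 in cKO (0.41). Strong intron peaks differed in the same direction. At 20.5 kb downstream the means were 141.0 and 154.3 reads (0.13), and at 57.4 kb 512.0 and 613.1 reads (0.26). At 71.2 kb they were 195.4 and 270.6 reads (0.47), and at 120.0 kb 145.0 and 209.4 reads (0.53). The start peak and these intron peaks thus differed by less than 2-fold, and all were higher in cKO.

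The higher peaks of *Igf1r* were weak. The intron peak 9.92 kb downstream of the start (chr7:67961536-67962817) had 4.993 and 18.9 reads, 3.78-fold higher (1.92). The intergenic peak 40.9 kb upstream (chr7:67910716-67912096) had 10.85 and 29.04 reads, 2.68-fold higher (1.42). A mean at or under 3 reads was treated as a floor, and 0 member peaks were at or under it, although the Control mean of the intron peak came near. In the opposite direction, an intron peak 128.0 kb downstream (chr7:68079598-68081486) had 65.8 and 40.22 reads (-0.71), and one 134.0 kb downstream had 73.52 reads in each group. The median over the 19 peaks was 0.32, and the summed reads were 1894.4 and 2395.5, a ratio of 1.26.

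The distal part of *Igf1r* held 8 more peaks, which lay nearer to the start of *Pgpep1l* and were outside the rule. All 8 were above 0. Of these, 4 were at least 2-fold higher, with 70.03 and 147.0 reads at chr7:68138555-68141538 (1.07), 16.22 and 35.02 reads at chr7:68144151-68145804 (1.11), 3.63 and 16.56 reads at chr7:68157119-68158136 (2.19), and 6.148 and 13.27 reads at chr7:68168924-68169624 (1.11). The strongest of the 8 (chr7:68147691-68156159) had 359.5 and 522.8 reads (0.54). When peaks inside a gene were given to that gene, *Igf1r* had 27 peaks, of which 22 were above 0 and 6 at least 2-fold higher, with a median of 0.41. Of all annotated peaks, 4.57% were at least 2-fold higher. All but the first of the 4 calls above had Control means of 16.22 reads or fewer.

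*Insr* encodes the insulin receptor and lies at chr8:3150922-3279617 on the minus strand. Its start peak (chr8:3276830-3280688) had 461.4 reads in Control and 369.6 in cKO (-0.32). The strongest peak, a domain of 16144 bp in an intron 47.1 kb downstream (chr8:3224398-3240541), had 1184 and 826 reads (-0.52). The other strong intron peaks had 537.5 and 474.4 reads at 92.9 kb (-0.18), 218.3 and 184.8 reads at 57.9 kb (-0.24), and 174.9 and 126.2 reads at 32.0 kb (-0.47). All 5 of these peaks were lower in cKO by less than 2-fold.

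The single *Insr* peak past the limit was centred on a coding exon 68.0 kb downstream of the start (chr8:3210844-3212300), with 45.25 and 12.3 reads, 3.68-fold lower (-1.88). Its nearest neighbours on either side were also below 0, at -0.66 (32.9 and 20.82 reads) and -0.45 (86.82 and 63.56 reads). The 3 peaks above 0 were weak, between 11.55 and 19.56 reads in Control, and differed by 0.35 to 0.52. The median over the 13 peaks was -0.45, and the summed reads were 2849.8 and 2179.6, a ratio of 0.765.

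The 2 tyrosine kinase receptors therefore stood on opposite sides of 0. Of the 748 genes with at least 10 peaks, 90 (12.0%) had a median as low as that of *Insr* and 90 (12.0%) one as high as that of *Igf1r*. Above 0 were 73.7% of the *Igf1r* peaks, 23.1% of the *Insr* peaks and 50.6% of all peaks. The shares of genes describe where these medians stood in the series and are no test.

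**Figure D1:**
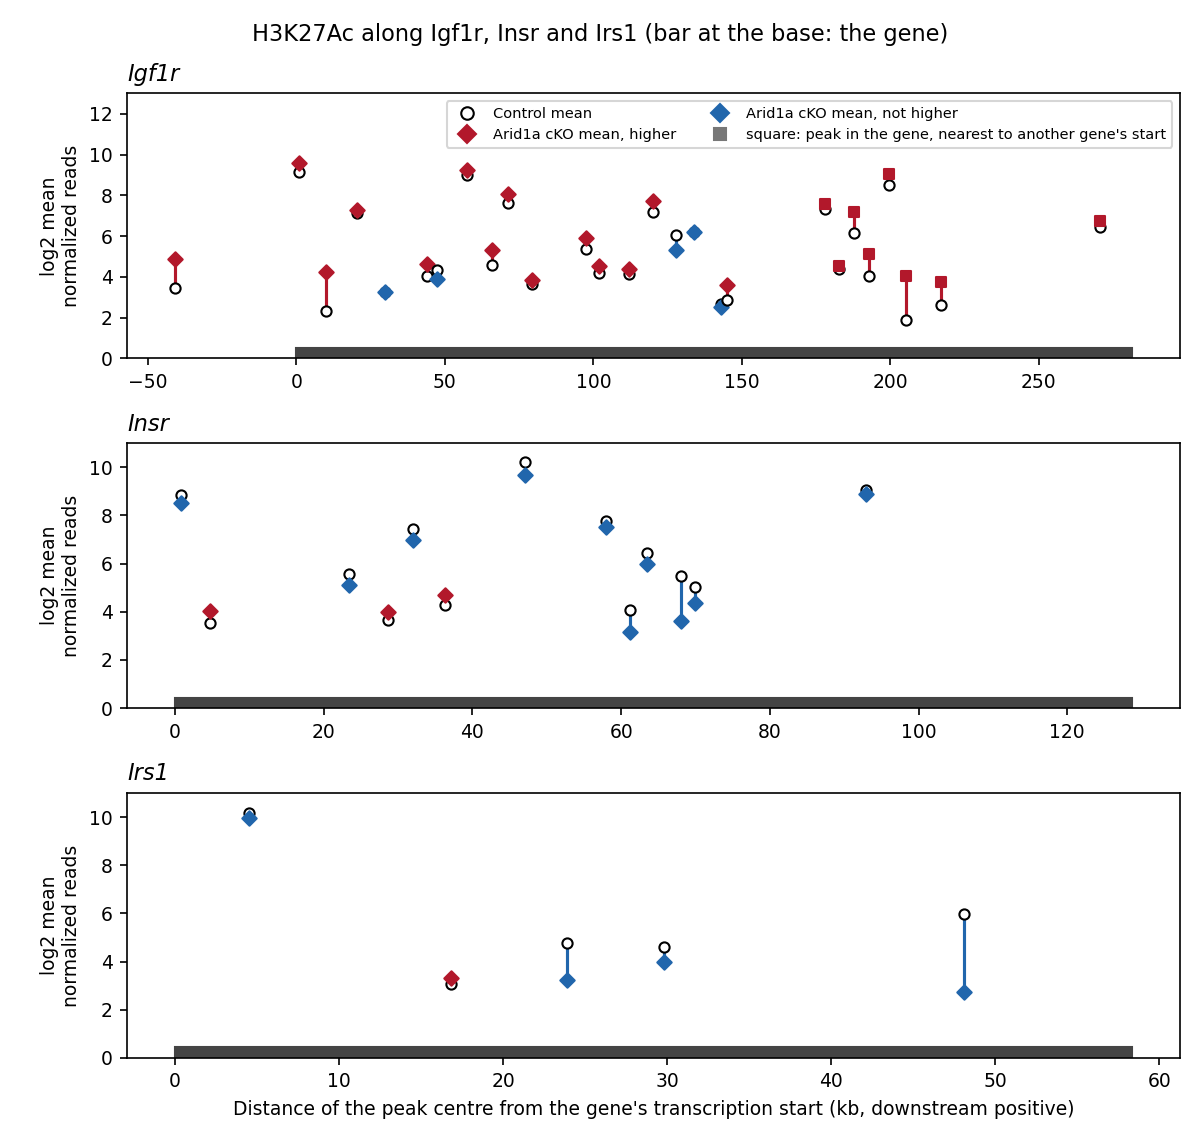
Log2 mean normalized reads of each peak (vertical axis) against the distance of its centre from the gene's transcription start in kb (horizontal axis) for *Igf1r*, *Insr* and *Irs1*, with open circles for the Control mean, filled symbols for the *Arid1a* cKO mean, squares for peaks in *Igf1r* nearest to another gene's start, and a bar for the gene. Filled symbols lie above the circles at 14 of 19 *Igf1r* peaks and at all 8 squares, and below them at 10 of 13 *Insr* and 4 of 5 *Irs1* peaks.

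**Figure D2:**
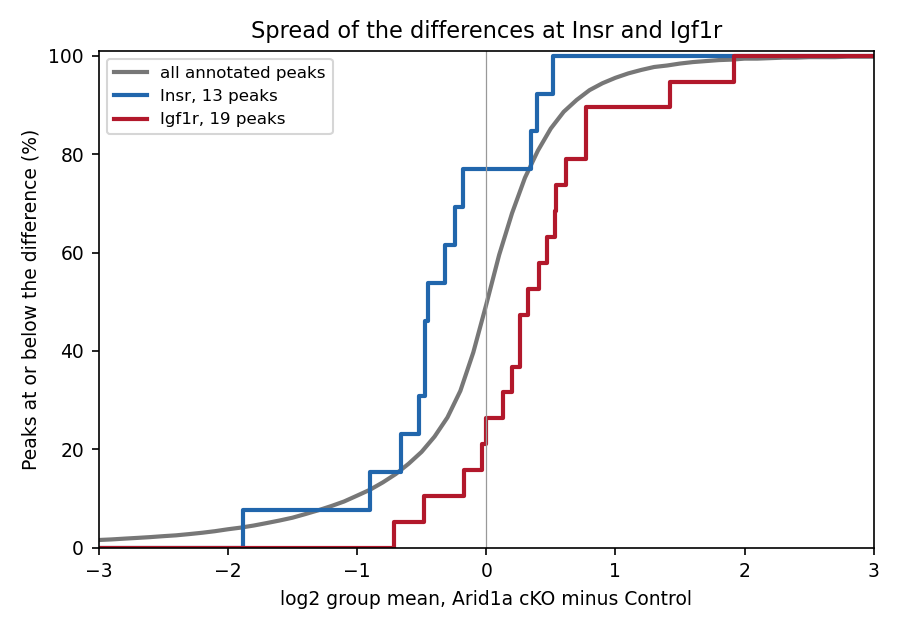
Cumulative percent of peaks (vertical axis) at or below each log2 difference, *Arid1a* cKO minus Control (horizontal axis), for *Insr* (blue, 13 peaks), *Igf1r* (red, 19 peaks) and all 45980 annotated peaks (gray). The *Insr* curve reaches 50% near its median of -0.45, left of the gray curve, and the *Igf1r* curve near 0.32, right of it.

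*Igf2r* encodes the mannose 6-phosphate receptor, which takes up IGF2 for degradation and does not transmit its growth signal. The gene lies at chr17:12682406-12769706 on the minus strand, and 6 of its 7 peaks lay upstream of its start within *Airn*, the noncoding RNA that overlaps it in antisense. The peak over the start, a domain of 22033 bp, had 1201 reads in Control and 1097 in cKO (-0.13), and the strongest upstream peak (chr17:12789371-12795824) had 897.6 and 910.2 reads (0.02). Strong peaks of the locus thus differed little between the groups. The start of *Airn* itself had 1097 and 1113 reads (0.02).

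Weaker *Igf2r* peaks differed more and in both directions. The peak 17.5 kb upstream (chr17:12786085-12788259) had 50.21 and 19.43 reads, 2.58-fold lower (-1.37). The peak 40.4 kb upstream (chr17:12809000-12811249) had 39.4 and 76.11 reads, 1.93-fold higher (0.95), just short of the limit. Summed over its own 7 peaks, *Igf2r* had 2544.1 and 2518.9 reads, a ratio of 0.99.

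*Irs1* and *Irs2* encode the docking proteins that link the receptors to PI3-kinase. Of the 5 *Irs1* peaks (gene at chr1:82233105-82291439, minus strand), 4 were below 0, and the median of -0.63 was the lowest of the 9 genes. The wide start peak (chr1:82281082-82292756) had 1152 reads in Control and 989.1 in cKO (-0.22) and made up most of the reads of the gene. The lower peaks lay in the intron. The peak 48.1 kb downstream (chr1:82242542-82244150) had 63.56 and 6.635 reads, 9.58-fold lower (-3.26), which was the largest difference of all 62 peaks. The peak 23.9 kb downstream (chr1:82266977-82268186) had 27.1 and 9.514 reads, 2.85-fold lower (-1.51). A peak between them had 24.25 and 15.67 reads (-0.63), and the weakest peak of the gene had 8.282 and 9.918 reads (0.26).

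*Irs2* had only distal peaks under the rule, at 90.0 kb and 141.0 kb upstream, with 134.4 and 114.6 reads (-0.23) and 19.97 and 18.0 reads (-0.15). The peak over its start (chr8:11000988-11014029) was centred nearer to the start of the noncoding transcript *9530052E02Rik* and was therefore not among the 62. It had 1333 and 1209 reads (-0.14). The docking proteins thus had 6 of 7 peaks below 0, and those of *Irs2* differed by less than 1.5-fold.

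*Igfbp3* encodes the main carrier of circulating IGFs. All 5 of its peaks were above 0, with a median of 0.24, and none passed the limit. Its start peak (chr11:7212154-7214205) was weak, with 14.42 reads in Control and 28.44 in cKO, 1.97-fold higher (0.98) and just short of the limit. The strongest peaks lay 284.0 kb and 290.0 kb upstream, with 113.8 and 119.4 reads (0.07) and 111.4 and 131.6 reads (0.24). The farthest peak lay 625.0 kb upstream, and distances of that size leave the link to *Igfbp3* uncertain.

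*Igfbp5* encodes a binding protein that also attaches to extracellular matrix. Its start peak (chr1:72873004-72875229) had 79.34 and 84.45 reads (0.09). An upstream peak 69.1 kb away (chr1:72941471-72946543) had 174.9 and 259.6 reads (0.57), whereas the peak beside it at 62.4 kb had 72.5 and 45.57 reads (-0.67). An intron peak 3.7 kb downstream of the start had 40.22 and 24.59 reads (-0.71). The 4 peaks were therefore split, and the median (-0.29) and the ratio of the summed reads (1.13) pointed in opposite directions.

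**Figure D3:**
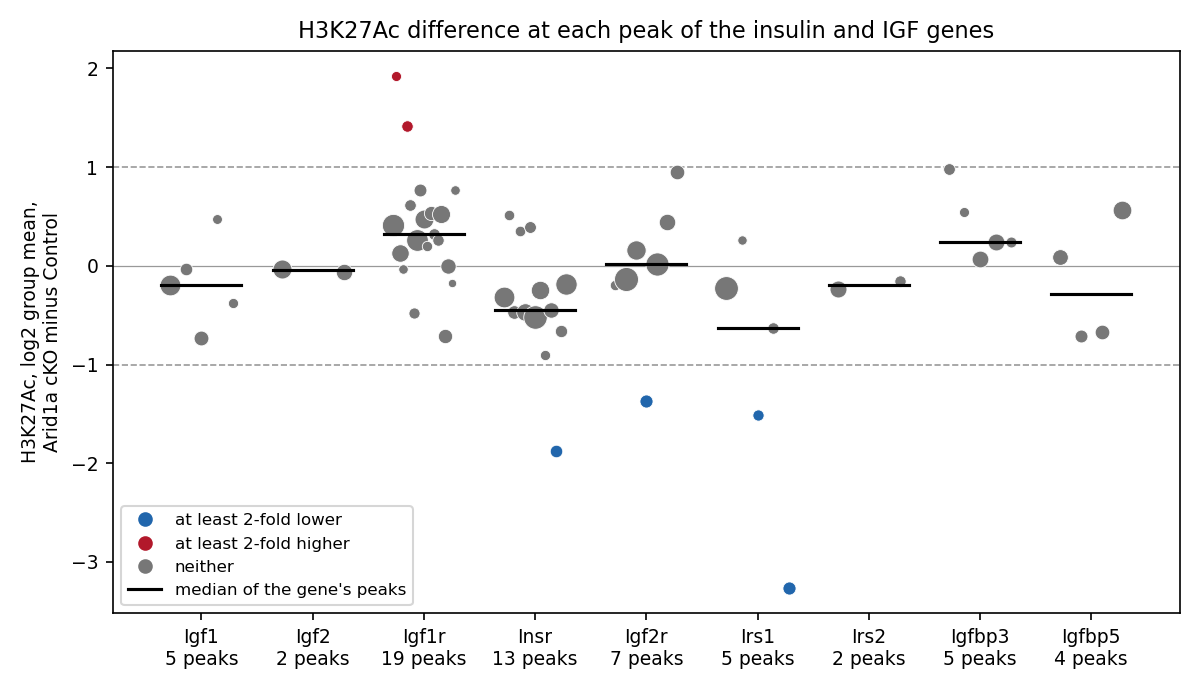
Log2 difference of the group means, *Arid1a* cKO minus Control (vertical axis), of each of the 62 peaks by gene (horizontal axis), with larger points for higher levels, black lines for gene medians and dashed lines at the 2-fold limit. Below the limit lie 2 *Irs1* peaks, 1 *Insr* and 1 *Igf2r* peak (blue), above it 2 *Igf1r* peaks (red), and the medians run from -0.63 at *Irs1* to 0.32 at *Igf1r*.

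Promoters were compared at the peaks that held a start. Of the member peaks, 9 held a start of their own gene, for 8 genes, and 0 of them were called in either direction. Over all 12022 peaks that held a start, 1.70% were lower and 1.16% higher. The member start peaks ranged from -0.32 at *Insr* to 0.98 at *Igfbp3*. All 6 called peaks were among the 53 that held no start, where 4 (7.55%) were lower and 2 (3.77%) higher, against 13.8% and 5.78% of all 33958 peaks without a start.

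On a scale of normalized reads per kb of peak, the *Insr* start peak had the highest level in Control (119.6, against 95.79 in cKO), followed by *Igf1r* (103.0 and 136.8), *Irs2* (102.2 and 92.73) and *Irs1* (98.68 and 84.72). In cKO the order of *Insr* and *Igf1r* was the reverse, with *Igf1r* highest. *Igf1* (70.8 and 62.06), *Igf2r* (54.51 and 49.81), the larger *Igf2* peak (45.53 and 44.6), *Igfbp5* (35.64 and 37.94), the smaller *Igf2* peak (23.21 and 22.27) and *Igfbp3* (7.027 and 13.86) had lower levels per kb. The median over all start peaks was 62.3 reads per kb in Control. Without values of single samples it cannot be said which neighbours in this order differed beyond the spread between hearts.

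**Figure D4:**
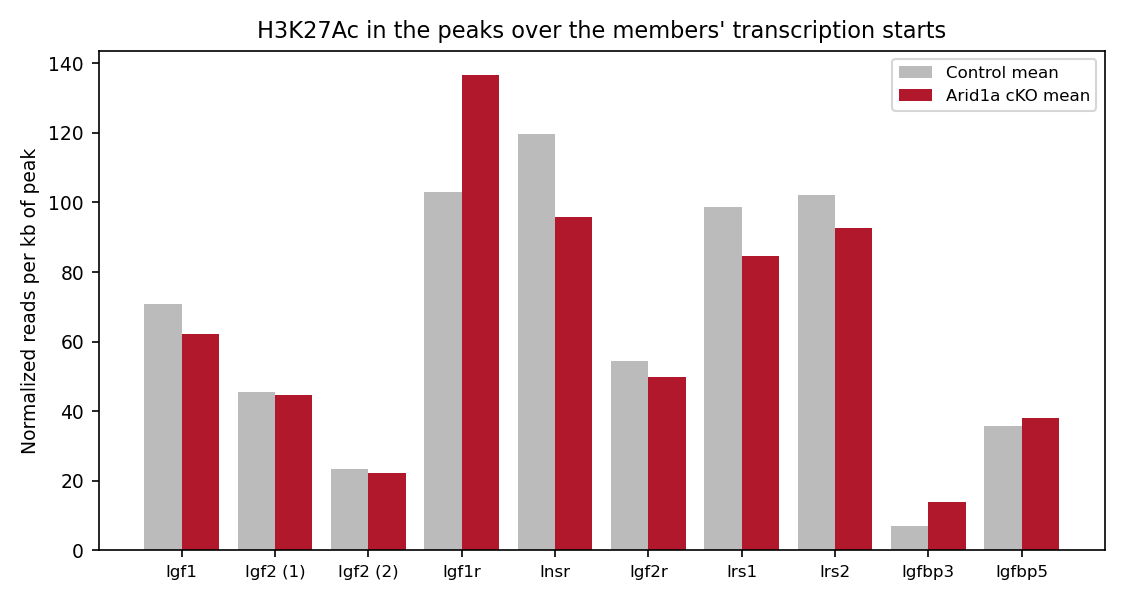
Normalized reads per kb of peak (vertical axis) in the peaks over the transcription starts of the members (horizontal axis), with gray bars for the Control mean and red bars for the *Arid1a* cKO mean, each an authors' mean without an error. The bars of *Igf1r* go from 103.0 to 136.8 and those of *Insr* from 119.6 to 95.79, while both *Igf2* peaks differ by no more than 0.06 on the log2 scale.

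The promoters of *Igf1r* and *Igfbp3* are shown because their start peaks had the largest upward differences. The sequences are from RefSeq on GRCm38.p6, from 250 bases before to 50 after the start, on the strand of the gene, with capitals for motif matches as above. Of the 9 members, 8 had at least 1 promoter in the table used (11 promoters). *Insr* was not among them.
Igf1r promoter, chr7:67952007-67952306, plus strand: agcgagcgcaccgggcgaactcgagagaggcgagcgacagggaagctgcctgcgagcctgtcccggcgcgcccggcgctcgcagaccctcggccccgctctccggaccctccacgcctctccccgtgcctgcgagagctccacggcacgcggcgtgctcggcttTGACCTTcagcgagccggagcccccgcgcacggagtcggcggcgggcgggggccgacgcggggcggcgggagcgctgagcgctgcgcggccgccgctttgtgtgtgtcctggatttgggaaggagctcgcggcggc
Igfbp3 promoter, chr11:7213874-7214173, minus strand: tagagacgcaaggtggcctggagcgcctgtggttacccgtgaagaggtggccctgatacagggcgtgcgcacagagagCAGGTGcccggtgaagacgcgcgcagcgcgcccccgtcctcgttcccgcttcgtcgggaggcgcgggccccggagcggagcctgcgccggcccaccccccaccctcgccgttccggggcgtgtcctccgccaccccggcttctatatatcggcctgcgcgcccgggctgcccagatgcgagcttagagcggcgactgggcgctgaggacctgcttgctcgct

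Both were rich in GC, at 76.0% in *Igf1r* and 71.7% in *Igfbp3* against a median of 52.7% over all promoters. They held 48 and 37 CpG dinucleotides, against a median of 7. The promoters of members with start peaks below 0 were mixed. Those of *Irs2* (72.0% GC, 41 CpG), *Irs1* (71.3%, 28) and *Igf2r* (70.7%, 34) were also rich, whereas that of *Igf1* had 52.3% and 6. The *Igf2* promoters ranged from 49.7% to 64.7% GC. The *Igf1r* promoter held 1 ESRR half-site and the *Igfbp3* promoter 1 ZEB motif, and neither held a TEAD core. In level per kb in Control, 0.349% of all start peaks were below the *Igfbp3* start peak and 77.6% were below that of *Igf1r*.

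Large differences were more frequent among weak peaks. All annotated peaks were ranked by mean level and split into 4 bins of equal size. The bin with the fewest reads (0.946 to 18.1) had 16.6% lower and 12.6% higher peaks, and the next (18.1 to 44.3) had 14.0% and 4.31%. The third (44.3 to 126) had 9.13% and 1.17%, and the bin with the most (126 to 6340) had 2.75% and 0.226%. The SD of the log2 differences across peaks was 1.21 in the lowest bin and 1.0, 0.705 and 0.37 in the next ones. All 4 lower member peaks (23.5%) and 1 higher one (5.88%) were among the 17 member peaks with 18.1 to 44.3 reads, and the other higher one was among 15 in the lowest bin. None of the 30 member peaks above 44.3 reads was called.

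**Figure D5:**
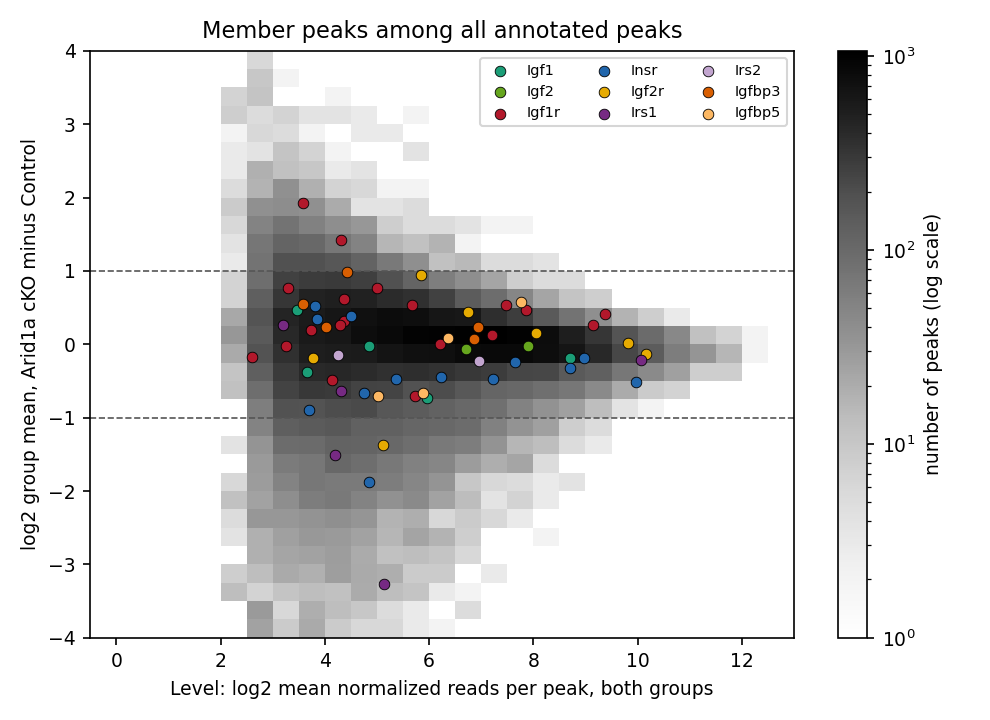
Log2 difference of the group means, *Arid1a* cKO minus Control (vertical axis, shown from -4 to 4), against the log2 mean normalized reads over both groups (horizontal axis), with the 62 member peaks as colored points by gene and the number of all annotated peaks as gray shading on a log scale. The 6 member peaks beyond the dashed 2-fold lines all have a mean level under 44.3 reads, and the strong member peaks lie near 0.

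The rest of the pathway was covered by a list of 63 other genes, of which 56 had 267 peaks. Of these peaks, 35 (13.1%) were at least 2-fold lower and 11 (4.12%) at least 2-fold higher, with a median of -0.01. The same limits took 10.6% and 4.57% of all peaks. The lower peaks were spread over 16 genes and the higher ones over 7, with 3 genes in both counts.

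Among kinases and adaptors downstream of the receptors, the peak over the start of *Akt2*, the AKT kinase of insulin-stimulated glucose uptake, had 604.7 and 177.3 reads (-1.77), and an intron peak of the gene had 29.24 and 6.635 reads (-2.14). For the counts that follow, 10.6% of all annotated peaks were at least 2-fold lower. *Rptor*, a scaffold of mTOR complex 1, had 4 of 6 peaks at least 2-fold lower and a median of -1.41. These lower *Rptor* peaks lay 61.2 to 107.0 kb downstream of its start. Those at 103.0 and 107.0 kb were weak, with 15.67 and 19.43 reads in Control. Of the adaptors that bind active insulin or IGF receptors, *Grb14* had 5 of 15 peaks lower (median -0.87) and *Grb10* 4 of 6 (median -1.07). Lower *Grb14* peaks 73.0, 96.0 and 106.0 kb upstream of its start lay inside *Cobll1*. Those inside *Grb14* were weak, with 16.22 and 21.26 reads in Control. Lower *Grb10* peaks 9.39 and 15.1 kb downstream of its start were also weak, with 14.83 and 9.849 reads in Control. The adaptors *Shc1* (median 0.07 over 1 peak), *Sh2b1* (-0.02 over 1 peak) and *Gab1* (0.05 over 13 peaks) had no peak past the limit. *Grb2*, the adaptor of the RAS branch, had an intron peak with 38.59 and 5.696 reads (-2.76). A peak assigned to *Sh2b2*, an adaptor of receptor kinases, lay 48.4 kb upstream in an intron of *Cux1*, with 97.01 and 38.05 reads (-1.35). *Tbc1d4*, the AKT substrate that controls GLUT4 transport, had an intron peak with 146.0 and 56.1 reads (-1.38). *Igfals*, which stabilizes IGF and IGFBP complexes in serum, had 102.5 and 35.02 reads at its start (-1.55).

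*Pik3r1*, the regulatory subunit of PI3-kinase, had called peaks on both sides, with 3 of 25 lower and 4 higher. Of all peaks, 10.6% were lower and 4.57% higher. The lower *Pik3r1* peaks reached -2.54 (32.9 and 5.657 reads) and lay 227.0 to 283.0 kb upstream of its start. A higher intron peak had 11.47 and 30.27 reads (1.40). Another higher peak lay 394.0 kb upstream, with 3.34 and 15.67 reads. Distances of these sizes leave the link to *Pik3r1* uncertain. *Foxo1*, a transcription factor that AKT keeps out of the nucleus, had a weak intergenic peak with 13.09 and 29.45 reads (1.17). It lay 122.0 kb downstream of the *Foxo1* start. The related *Foxo3* had 3 of 12 peaks lower and 1 higher, with Control means of 30.27 reads or fewer. Of the mRNA-binding proteins that take their name from *Igf2*, *Igf2bp2* had an intron peak of 157.6 and 315.2 reads (1.0) and *Igf2bp1* one of 25.11 and 52.71 reads (1.07), whereas *Igf2bp3* had a weak intron peak of 7.568 and 1.424 reads, lower in cKO. *Pik3cd*, a catalytic subunit of PI3-kinase, had 9.19 and 19.43 reads at its start (1.08). *Slc2a4*, which encodes GLUT4, had 1 peak and a difference of -0.31, and *Akt1* 1 peak and -0.89.

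Markers of cell types were read in the same table, since whole ventricles hold many cell types. Fewer cells of a type and less acetylation per cell cannot be told apart in such samples. Peaks nearest to 8 fibroblast markers were above 0 in 46 of 51 cases, with a median of 0.44. Of these peaks, 0 were at least 2-fold lower and 9 (17.6%) higher, against 10.6% and 4.57% of all peaks. The summed reads of the fibroblast start peaks were 1826.3 in Control and 2554.5 in cKO. Peaks of 8 cardiomyocyte markers were below 0 in 27 of 41 cases (median -0.15), with 16120.3 and 14653.4 summed reads at 7 start peaks. Of the 41, 3 (7.32%) were at least 2-fold lower and 2 (4.88%) higher. Endothelial markers had a median of 0.06, smooth muscle and pericyte markers 0.03, macrophage and leukocyte markers 0.27 over 9 peaks, and epicardial markers 0.34 over 15. The shares lower and higher were 6.9% and 1.72% for endothelial and 0.0% and 5.71% for smooth muscle and pericyte peaks. They were 0.0% and 0.0% for macrophage and leukocyte and 0.0% and 13.3% for epicardial peaks. Every marker of the first 4 lists had a peak, whereas 5 of 7 macrophage and leukocyte and 4 of 6 epicardial markers did. Per kb, the cardiomyocyte start peaks had 85.69 to 155.9 reads in Control and the fibroblast ones 20.76 to 36.91. The median of *Igf1r* (0.32) was above 0, as were those of all annotated peaks (0.01) and of all marker lists except the cardiomyocyte one. The endothelial and the smooth muscle and pericyte medians lay near that of all peaks. The medians of *Insr* and of the cardiomyocyte markers were below 0, although the *Myh6* start peak was above it (0.13). The part of these markers in the values of the members was not tested. The start peak of *Arid1a* had 1607 and 1663 reads (0.05), which does not check the deletion, since the floxed part of the gene was not analysed here.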

How the data were processed

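H3K27Ac ChIP-Seq and input libraries were grouped by genotype and antibody as given in the labels. The authors aligned reads with BWA 0.7.17-r1188 on mm10. HOMER findPeaks in histone mode, with the pooled inputs as background, gave the peaks, and those of at least 2 samples entered DiffBind 2.12.0 with DESeq2 1.24.0. The deposited table holds the log2 mean normalized read count per peak, over all samples and per group, and the fold change, p-value and FDR of the authors' comparison, which were not used. Library scaling and any input subtraction are not given in the sources used here. It gives 0 columns of single samples, which leaves the depth per sample unknown. The log2 group means were subtracted and converted to reads.

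Peaks were assigned by their centre to the nearest of 45756 curated RefSeq starts on GRCm38.p6. Unplaced sequences held 7 peaks, which were dropped. A promoter was 1000 bp before to 100 bp after a start. All member genes were named. Of the other pathway genes, those with a called peak and a larger group mean of at least 16 reads were named, at most 8 each way by size. *Grb10*, *Shc1*, *Sh2b1*, *Gab1*, *Foxo3*, *Igf2bp3*, *Slc2a4*, *Akt1* and peaks in member genes nearest to other starts were added after their values were seen. The members and lists were chosen with earlier results of these data known. Alternatives covered the fold limit, centring, low values, a pseudocount, peak assignment and distance. Some sequences and 1 peak are not reported here. Steps were tested on simulated data, in Python 3.11.15 with numpy 2.4.6, pandas 2.3.3 and matplotlib 3.10.9.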

Additional observations from a re-analysis of the deposited data

How the results depend on the processing

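The median difference over the member peaks (-0.015) and over the other pathway peaks (-0.01) moved by less than 0.1 under each alternative run, and that of the members was 0.045 when peaks inside a gene were given to that gene. With a limit of 1.5-fold, 11 member peaks (17.7%) were lower and 7 (11.3%) higher in place of 4 and 2, and 55 other pathway peaks (20.6%) were lower and 29 (10.9%) higher in place of 35 and 11, against 17.3% and 12.0% of all peaks. With a pseudocount of 8 reads, 1 member peak (1.61%) was higher, and 17 other pathway peaks (6.37%) were lower and 1 (0.375%) higher, against 6.88% and 1.1% of all peaks. Without peaks whose larger mean was under 16 reads, 6 other pathway peaks (2.75%) were higher, against 3.35%. With peaks inside a gene given to that gene, 6 of 70 member peaks (8.57%) were higher, above the 4.57% of all peaks. With only the starts of protein-coding transcripts, an alternative chosen after seeing the data, 12 of 86 member peaks (14.0%) were lower, above the 10.6% of all peaks. The added peaks lay nearer to noncoding starts. A lower peak in an intron of *Myo16* (chr8:10585914-10588686), for example, was given to *Irs2* (chr8:10984681-11008929). Among single genes, the median of *Irs1* was -1.07 without weak peaks and -0.45 with the pseudocount. Within 100 kb of the start, the median of *Igf1r* was 0.44 and that of *Igfbp3* 0.77. The medians of *Igf1r* and *Insr* kept their sign under each alternative.

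No paired analysis was possible because the deposited table holds group means only. For the same reason leaving out replicates was not run, and no difference has a spread between hearts or an interval. Both calls at *Igf1r* rest on few reads.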
